A study of Mus musculus with 4 samples.

Results

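The nuclear receptors are a superfamily of transcription factors that share a zinc-finger DNA-binding domain and a ligand-binding domain. They were chosen here by name: every non-control probe on the array whose gene name was one of 46 listed receptor genes, of 29676 gene names in all. These 46 genes had 73 probes on 109 spots. Astrocyte-enriched cultures (AECs) were mixed glial cultures from the cerebral cortex of newborn ICR mice, pooled across pups, from which microglia had been removed with PLX3397, which blocks CSF1R, the growth factor receptor that microglia depend on. All 4 samples were such brain-derived AECs seeded on 6-well plates and had received PLX3397 before seeding. The untreated group (n = 2) was compared with AECs kept for 15 h under oxygen–glucose deprivation (OGD; n = 2), that is, in medium without glucose and under hypoxia, as a model of ischemia. The methods state that the cells of each well came from an independent culture of different pups, and the study names oligodendrocytes and possibly NG2 glia as other cells of these cultures. The question of the comparison was which genes respond to OGD in AECs, and the data set the NR4A receptors within their whole superfamily.

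Many nuclear receptors are switched on by a lipid-soluble ligand. Steroid receptors are held by heat shock proteins, some of them in the cytoplasm, and bind DNA as homodimers. The receptors for thyroid hormone, retinoic acid, vitamin D, oxysterols and fatty acids instead sit on DNA as heterodimers with a retinoid X receptor. These heterodimers exchange corepressors for coactivators when the ligand arrives. Orphan receptors such as the NR4A group need no known ligand and are controlled mainly by how much of them is made, the NR4A genes being classical immediate early genes. In astrocytes, receptors of these classes are known to control cholesterol export, glucocorticoid and thyroid hormone responses, inflammation and the circadian clock.

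All 4 arrays lay on 1 slide with 1 scan, so no array batch stood beside the groups. Untreated arrays had 75th percentiles of the processed signal of 2135 and 2164, those after OGD of 887 and 776, and the share of spots well above background fell from 73.7% and 73.0% to 66.2% and 64.5%. In contrast, the 9 spiked-in control probes detected on all arrays differed by −0.085 on the log2 scale on average (range −0.75 to 0.28). The signals below are processed signals in intensity units, as deposited and not scaled between arrays. Fold changes are OGD over untreated after each array was divided by its 75th percentile, and a change was called at an adjusted p under 0.05 in limma over all 28163 probes tested. A change called on this scale is relative to the other transcripts on the array, and dividing by the spiked-in probes moved the median log2 fold change of all 21009 genes tested from 0.16 to −1.13. The methods give a set amount of total RNA for labeling, so that spike-in scaling does not give amounts per cell. With bulk RNA, fewer cells of a type and less RNA per cell cannot be told apart.

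Of the 46 receptors, 38 could be tested, and 36 of these were well above background on all 4 arrays. With 75th-percentile scaling, 11 members rose and 17 were called lower after OGD, and 10 did not pass the test. With the methods' t-test in place of limma, 5 of the 38 lost their call. The 17 include *Pgr* and *Nr1h4*, which were well above background on neither OGD array, and 15 were called lower among the 36 members well above background on all 4 arrays. Thus 28.9% of the tested members rose against 37.1% of all genes tested, and 44.7% were called lower against 27.9% of all genes. The median log2 fold change was −0.19 for the members and 0.16 for all genes. Beyond 10-fold, 3 members rose, against 0.709% of all genes, and these were *Nr4a1*, *Nr4a2* and *Nr4a3*. No member fell beyond 10-fold in limma, against 0.562% of all genes, and the count was also 0 at an unadjusted p and with the methods' t-test. With spike-in scaling *Nr4a1* and *Nr4a3* rose and *Ppara* fell beyond 10-fold. Beyond 2-fold, 9 members rose and 10 were called lower, against 12.7% and 15.1% of all genes. The 10 include *Pgr* and *Nr1h4*, for which no fold can be read because neither was well above background after OGD. Without the first untreated array the number of members called lower was 11 in place of 17.

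**Figure D1:**
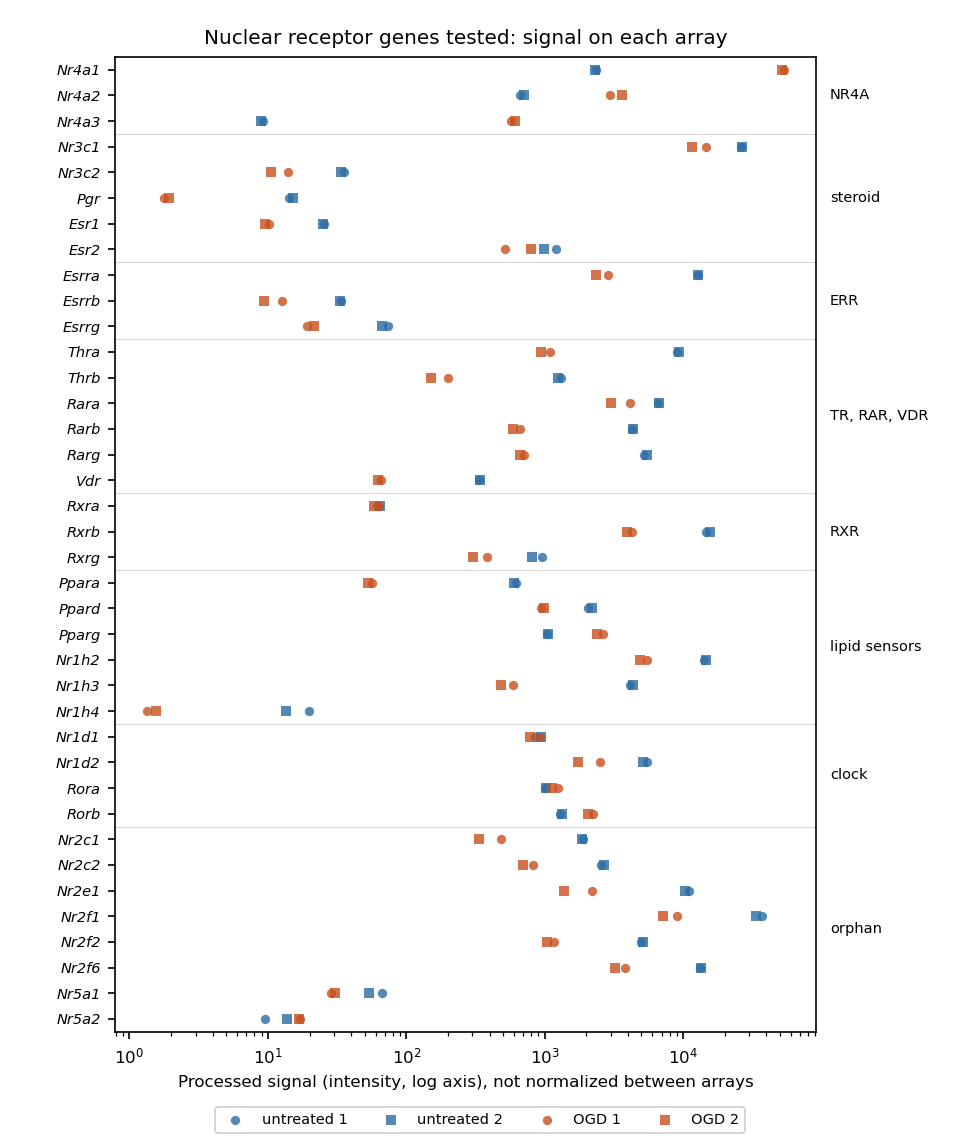
Processed signal of the brightest tested probe of each of the 38 tested nuclear receptor genes (x axis, intensity on a log axis, not normalized between arrays) on each of the 4 arrays, with genes grouped by role. The NR4A genes, *Pparg*, *Rora*, *Rorb* and *Nr5a2* lay higher on the OGD arrays before any scaling, *Rxra* and *Nr1d1* overlapped between groups, and the others lay lower.

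The NR4A receptors bind DNA without a ligand and are induced within minutes to hours by many stimuli. Since they were the members that rose beyond 10-fold with 75th-percentile scaling, the 250 bases before their transcription start are shown first. They come from the RefSeq table of the GRCm38.p6 build, which had such a sequence for 42 of the 46 members. Each is written 5′ to 3′ on the gene's strand, and capitals mark each match to TGACG, the half-site of the cyclic AMP response element, on either strand (CGTCA on the reverse). The *Nr4a1* sequence is chr15:101266596-101266845 (plus strand), *Nr4a2* is chr2:57124004-57124253 (minus strand) and *Nr4a3* is chr4:48045055-48045304 (plus strand).
Nr4a1: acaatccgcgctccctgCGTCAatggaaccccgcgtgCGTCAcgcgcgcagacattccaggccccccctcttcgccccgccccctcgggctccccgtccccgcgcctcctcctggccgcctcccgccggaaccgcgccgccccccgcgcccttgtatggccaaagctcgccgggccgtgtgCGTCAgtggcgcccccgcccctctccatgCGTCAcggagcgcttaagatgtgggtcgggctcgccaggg
Nr4a2: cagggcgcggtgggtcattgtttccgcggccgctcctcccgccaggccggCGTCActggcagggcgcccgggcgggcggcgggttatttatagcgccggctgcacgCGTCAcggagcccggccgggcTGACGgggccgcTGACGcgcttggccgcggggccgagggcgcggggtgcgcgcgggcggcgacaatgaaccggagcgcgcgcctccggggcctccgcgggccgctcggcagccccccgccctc
Nr4a3: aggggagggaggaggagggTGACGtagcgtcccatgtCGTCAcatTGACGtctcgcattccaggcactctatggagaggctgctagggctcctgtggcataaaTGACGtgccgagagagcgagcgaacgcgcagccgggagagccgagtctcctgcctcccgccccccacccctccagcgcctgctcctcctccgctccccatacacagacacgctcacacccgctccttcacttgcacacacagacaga

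Each of the 3 sequences held 4 such matches. In *Nr4a1* they began at −233, −213, −69 and −40 from the start and all read on the reverse strand, in *Nr4a2* at −200, −144, −123 and −111, and in *Nr4a3* at −231, −213, −205 and −147. Among all 32851 RefSeq promoters of the same length, 17.8% held the motif at least once and 0.137% (45 promoters) held it 4 times or more. Among the 63 promoters of the 42 members, 20.6% held it, and after the NR4A genes the highest number was 3, in *Nr2e1*, which fell. The core of the hypoxia response element was searched on both strands in its ACGTG form, which can overlap the response element half-site, and in its GCGTG form. *Nr4a1* held GCGTG 2 times, *Nr4a2* 1 time, and *Nr4a3* held each form 1 time. Either core was present in 38.6% of all promoters and in 50.8% of member promoters (32 of 63). AGGTCA, the half-site that many nuclear receptors bind, was in none of the NR4A sequences, in 17.5% of member promoters and in 14.0% of all promoters. These matches describe letters in a window and not bound sites.

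*Nr4a1* (NUR77) had signals of 2335 and 2315 in untreated AECs and 53676 and 52039 after OGD. The groups were far apart on the scanner scale already, and the normalized fold change was 58.9 (log2 5.88 ± 0.09 SE, limma, adjusted p = 0.000719). *Nr4a2* (NURR1), which dopamine neurons need for their development, went from 663 and 707 to 2956 and 3592 at its brighter probe. This was a 12.3-fold increase (log2 3.62 ± 0.19 SE, adjusted p = 0.000974), and its second probe gave a log2 fold change of 3.33, from 314 and 326 to 1158 and 1328. *Nr4a3* (NOR1) was close to background in untreated AECs, at 9.16 and 8.92, and reached 570 and 609 after OGD. Its fold change was 169 (log2 7.40 ± 0.13 SE, adjusted p = 0.000719), on a probe printed in 10 spots per array. The size for *Nr4a3* depended on the background correction, since normexp correction gave a log2 fold change of 4.52. With spike-in scaling the increases were 24.1-fold, 5.05-fold and 69.2-fold for *Nr4a1*, *Nr4a2* and *Nr4a3*, and every alternative kept the calls.

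The probe that measured *Nr4a3* spans an intron in the mouse genome (mm9, chr4:48080690-48083876, plus strand), as do the single probe of *Nr1d1* (chr11:98630526-98631028, minus strand) and the upstream probe of *Thra* (chr11:98617475-98618281, plus strand). Their sequences are given because *Nr4a3* and *Nr1d1* were measured by them and because the *Thra* probe differed from a downstream one, as described with the probe pairs. *Nr1d1* and *Thra* are neighbors on opposite strands. No letters are marked.
Nr4a3 probe: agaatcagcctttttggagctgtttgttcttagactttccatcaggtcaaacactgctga
Nr1d1 probe: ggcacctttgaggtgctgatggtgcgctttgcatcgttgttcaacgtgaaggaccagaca
Thra upstream probe: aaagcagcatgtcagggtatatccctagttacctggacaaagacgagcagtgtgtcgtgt

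Next, the 5 steroid receptors were examined. *Nr3c1* encodes the glucocorticoid receptor, which most cells express. Its brighter probe had the signals 26056 and 26616 in untreated AECs and 14527 and 11592 after OGD, lower on both OGD arrays. After 75th-percentile scaling this was 1.28-fold higher (log2 0.35 ± 0.09 SE, adjusted p = 0.0296), whereas spike-in scaling gave −0.94 and quantile normalization −0.21 on the log2 scale. The call was also lost with either untreated array left out (adjusted p = 0.161 without the first and 0.158 without the second) and without the first OGD array (adjusted p = 0.0531). The second probe of *Nr3c1*, 2542 bases upstream on the same transcript, was higher on both OGD arrays before scaling, with 316 and 304 against 653 and 605, a normalized 5.26-fold increase.

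*Pgr*, the progesterone receptor, was faint. It had signals of 14.3 and 15.1 in untreated AECs and 1.78 and 1.93 after OGD, where it was not well above background. Its scaled untreated level lay under the lowest level that was well above background on the OGD arrays, so that no decrease can be read from it, although the fit gave an adjusted p of 0.00200. Under normexp correction its sign turned (log2 0.96). *Nr3c2*, the mineralocorticoid receptor, did not pass the test (log2 −0.13 ± 0.11 SE; 35.4 and 33.7 against 14.1 and 10.5). Neither did the estrogen receptor *Esr1* at its brighter probe (log2 0.01 ± 0.08 SE; 25.6 and 25.0 against 10.3 and 9.47). A fainter probe of *Esr1* on another transcript gave a log2 fold change of 1.75, from 11.3 and 8.95 to 15.3 and 11.2. *Esr2*, the second estrogen receptor, had 1206 and 988 against 520 and 794 with the OGD arrays unlike each other (log2 0.61 ± 0.32 SE, adjusted p = 0.167). Its log2 fold change was 1.01 without the first OGD array (adjusted p = 0.0193) and −0.68 with spike-in scaling (adjusted p = 0.0650).

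The estrogen-related receptors are orphan receptors that drive mitochondrial genes together with PGC-1 coactivators. *Esrra* fell from 12703 and 12871 to 2871 and 2332, a normalized 1.91-fold decrease (log2 −0.93 ± 0.08 SE, adjusted p = 0.00228). The faint *Esrrb* (33.7 and 32.9 against 12.6 and 9.32) and *Esrrg* (73.4 and 66.8 against 19.0 and 21.5) did not pass, at −0.25 and −0.42 on the log2 scale. Neither result was stable, since *Esrrb* passed without the first OGD array (log2 −0.37, adjusted p = 0.0346) and *Esrrg* without the second (log2 −0.60, adjusted p = 0.0230), both passed with the percentile of detected probes (adjusted p = 0.0371 and 0.0466) and with spike-in scaling, and normexp correction gave both the opposite sign.

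Of the 6 receptors for thyroid hormone, retinoic acid and vitamin D, 5 fell and 1 rose, against 27.9% and 37.1% of all genes. *Thra*, the main thyroid hormone receptor of the brain, had signals of 8967 and 9373 in untreated AECs and 1097 and 942 after OGD. The decrease was 3.48-fold (log2 −1.80 ± 0.08 SE, adjusted p = 0.000791). *Thrb*, the second thyroid hormone receptor, fell 2.84-fold (log2 −1.51 ± 0.11 SE, adjusted p = 0.00163), from 1308 and 1238 to 199 and 150. Its other probe fell as well (log2 −1.20).

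Among the retinoic acid receptors, *Rarb* and *Rarg* fell while *Rara* did not. *Rarb*, itself a target of retinoic acid, went from 4239 and 4378 to 661 and 586 (log2 −1.42 ± 0.07 SE, adjusted p = 0.000998). *Rarg* went from 5227 and 5504 to 710 and 663 (log2 −1.59 ± 0.08 SE, adjusted p = 0.000994). For both genes the untreated signals lay far above those after OGD. *Rara* had 6573 and 6692 against 4116 and 2990, a 1.37-fold rise after scaling (log2 0.45 ± 0.12 SE, adjusted p = 0.0356) that spike-in scaling turned to −0.83 and that was lost with either untreated array left out (adjusted p = 0.152 and 0.154). A second *Rara* probe, 847 bases upstream, was higher on both OGD arrays before scaling (1128 and 1235 against 2648 and 2701; log2 2.55). *Vdr*, the vitamin D receptor, fell 2.04-fold, from 337 and 343 to 65.7 and 62.9 (log2 −1.03 ± 0.09 SE, adjusted p = 0.00205).

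The retinoid X receptors are the shared partners of these receptors, and they did not move together. *Rxrb* had the signals 14635 and 15534 in untreated AECs and 4258 and 3950 after OGD (log2 −0.51 ± 0.08 SE, adjusted p = 0.00953), a call that was lost without the first (adjusted p = 0.0672) or the second untreated array (0.0879). *Rxra* overlapped between groups before scaling (61.6 and 64.8 against 63.0 and 58.4), rose 2.49-fold relative to the 75th percentile (log2 1.31 ± 0.08 SE, adjusted p = 0.00127) and stood at 0.03 on the log2 scale with spike-in scaling. *Rxrg* did not pass at its brighter probe (951 and 806 against 382 and 304; log2 0.01 ± 0.13 SE), whereas its other probe, 128 bases downstream, fell from 228 and 241 to 43.3 and 33.3 (log2 −1.25).

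The lipid sensors split by member. The peroxisome proliferator-activated receptors (PPARs) respond to fatty acids, PPARα driving fatty acid oxidation and PPARγ lipid storage. *Pparg* rose 6.24-fold, from 1032 and 1063 to 2649 and 2405 (log2 2.64 ± 0.08 SE, adjusted p = 0.000719), the largest increase of a member outside the NR4A group, and was still 2.56-fold higher with spike-in scaling. *Ppara* fell 4.33-fold, from 618 and 604 to 56.6 and 52.6 (log2 −2.11 ± 0.08 SE, adjusted p = 0.000757), and normexp correction gave −1.04. The 3 tested probes of *Ppara* did not move alike, since the most downstream one fell by 3.18 on the log2 scale and a probe between them was called higher (log2 0.47, adjusted p = 0.0326; −0.82 with spike-in scaling). *Ppard* did not pass (2050 and 2196 against 933 and 981; log2 0.22 ± 0.12 SE), but without the first OGD array it did (log2 0.36, adjusted p = 0.0420).

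The liver X receptors (LXRs) sense oxysterols and drive cholesterol export. *Nr1h3*, which encodes LXRα, fell 3.07-fold, from 4132 and 4363 to 592 and 480 (log2 −1.62 ± 0.09 SE, adjusted p = 0.00101), and its second probe fell too (log2 −1.32). *Nr1h2*, which encodes LXRβ, did not pass (14198 and 14686 against 5462 and 4878; log2 −0.11 ± 0.08 SE). The bile acid receptor *Nr1h4* was faint, with 19.7 and 13.5 in untreated AECs and 1.34 and 1.56 after OGD, not well above background there. As for *Pgr*, no decrease can be read from it, although the fit gave an adjusted p of 0.00466, and normexp correction turned its sign (log2 0.89).

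Of the 4 clock receptors, 3 rose, against 37.1% of all genes, and with spike-in scaling 2 were higher and *Nr1d2* was lower. REV-ERBs repress and RORs activate the same clock genes. *Rorb* rose 4.21-fold, from 1290 and 1343 to 2224 and 2060 (log2 2.07 ± 0.08 SE, adjusted p = 0.000757). Its downstream probe gave a log2 fold change of −0.15. *Rora* went from 1013 and 1026 to 1245 and 1129, a 3.01-fold rise after scaling (log2 1.59 ± 0.08 SE, adjusted p = 0.000890) that with spike-in scaling was 1.23-fold and with the mean over its probes did not pass (log2 0.33, adjusted p = 0.121). A faint probe for another *Rora* transcript was called lower (log2 −0.93; 47.6 and 40.6 against 7.70 and 10.3). *Nr1d1* (REV-ERBα) overlapped between groups before scaling (847 and 945 against 926 and 783), so that its 2.47-fold rise (log2 1.30 ± 0.09 SE, adjusted p = 0.00150) became 0.01 on the log2 scale with spike-in scaling. *Nr1d2* (REV-ERBβ) did not pass (log2 0.03 ± 0.15 SE), with 5493 and 5135 against 2507 and 1744, although its second probe was called higher (log2 0.61).

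Among the 10 developmental and other orphan receptors, 8 could be tested, 6 fell and 1 rose, against 27.9% and 37.1% of all genes. *Nr2e1* (TLX), which keeps neural stem cells dividing, fell 2.38-fold from 11013 and 10285 to 2183 and 1367 (log2 −1.25 ± 0.19 SE, adjusted p = 0.00814). Its call was lost in 2 of the 17 alternatives tried. The COUP transcription factors *Nr2f1* and *Nr2f2*, which pattern the cortex, fell, as did the related *Nr2f6*. *Nr2f1* went from 37427 and 33637 to 9054 and 7210 (log2 −0.76 ± 0.11 SE, adjusted p = 0.00656), *Nr2f2* had a log2 fold change of −0.82 ± 0.08 SE (adjusted p = 0.00241) and *Nr2f6* one of −0.55 ± 0.08 SE (adjusted p = 0.00597). *Nr2c1* and *Nr2c2*, the testicular receptors, had log2 fold changes of −0.84 ± 0.14 SE and −0.42 ± 0.08 SE (adjusted p = 0.00912 and 0.0129). For *Nr2c1* the call was lost in 3 of the 17 alternatives. Without the first untreated array, the adjusted p was 0.0539 for *Nr2e1*, 0.0515 for *Nr2f1*, 0.0599 for *Nr2f6*, 0.0622 for *Nr2c1* and 0.0905 for *Nr2c2*. Without the second, it was 0.0647, 0.0593 and 0.113 for *Nr2f6*, *Nr2c1* and *Nr2c2*. *Nr5a2* (LRH-1) was faint but higher on both OGD arrays, with 9.56 and 13.7 against 17.1 and 16.8 (3.83-fold; log2 1.94 ± 0.20 SE, adjusted p = 0.00321). *Nr5a1* (SF-1), the regulator of steroid hormone synthesis, did not pass (66.6 and 53.9 against 28.7 and 30.6; log2 0.36 ± 0.17 SE).

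The remaining 8 members were not tested, since none of their probes was well above background on both arrays of a group. They were the photoreceptor factor *Nr2e3*, the germ cell factor *Nr6a1*, the liver factors *Hnf4a* and *Hnf4g*, the xenobiotic sensors *Nr1i2* and *Nr1i3*, and *Nr0b1* and *Nr0b2*, which lack a DNA-binding domain. Their processed signals ranged from 1.40 (*Nr0b2*) to 11.4 (*Nr6a1*).

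The direction of many members depended on how the arrays were scaled, and so each was followed through 5 scalings (75th percentile of all or of detected probes, median, quantile and spiked-in probes). Of the 11 members that rose, 7 kept the call in all 5 at their brightest tested probe. These were the 3 NR4A genes, *Pparg*, *Rorb*, *Nr5a2* and *Rora*. A second probe of *Rorb* and of *Rora* did not rise. The members called lower kept the call, which spike-in scaling, by lowering every gene, could hardly take away. With spike-in scaling, 7 members were higher, against 3.85% of all genes, and 28 were lower, against 83.4% of all genes, and the median of the members was −1.48 against −1.13 for all genes.

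**Figure D2:**
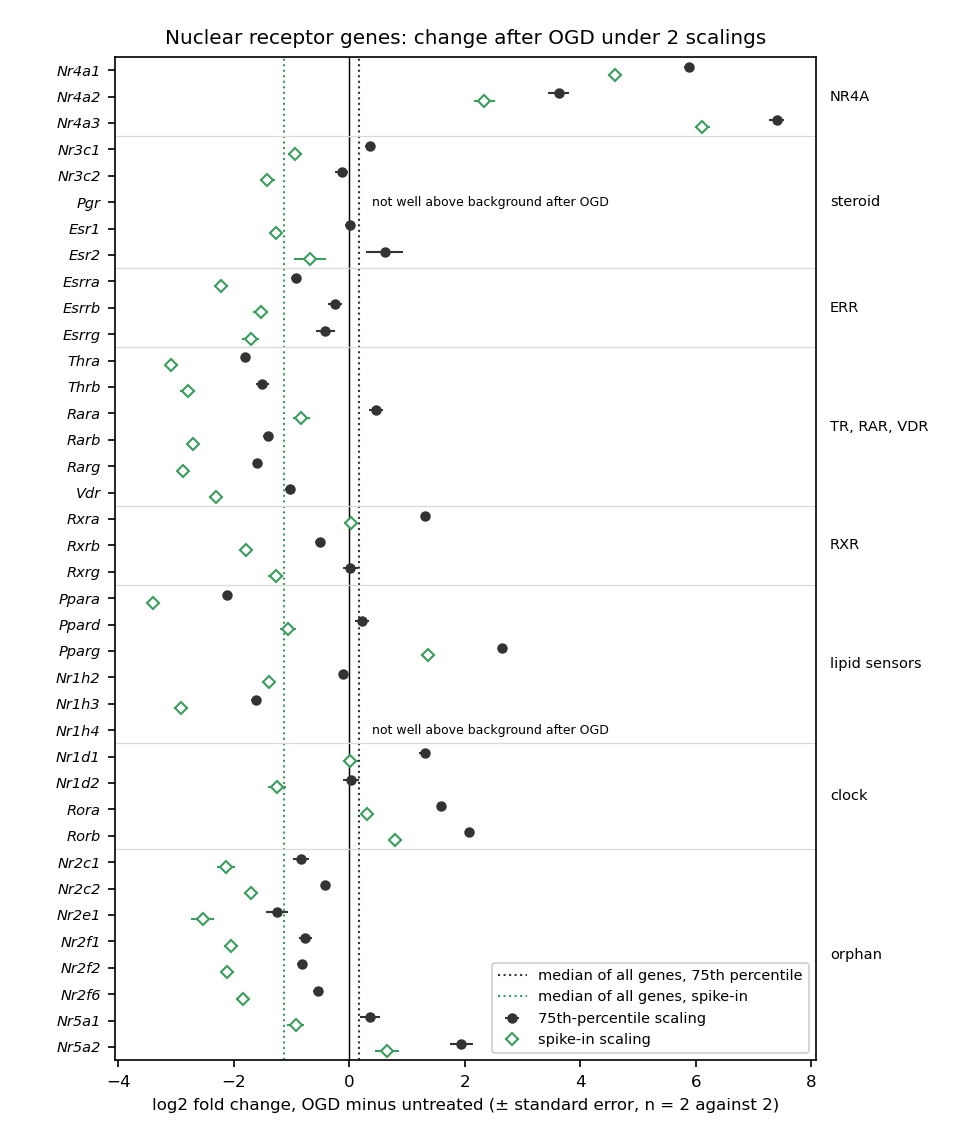
Log2 fold change of each tested nuclear receptor gene (x axis, OGD minus untreated, ± SE, n = 2 against 2) with 75th-percentile scaling (filled circles) and spike-in scaling (open diamonds), with the median of all genes under each as a dotted line; *Pgr* and *Nr1h4* have no point because they were not well above background after OGD. With spike-in scaling the NR4A genes and *Pparg* remained well above 0, *Rxra* and *Nr1d1* lay at 0.03 and 0.01, and *Nr3c1* and *Rara* lay below 0.

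Where a receptor had several probes, these often gave different values. Of 18 members with several tested probes, 3 had probes called in opposite directions (*Ppara*, *Rora* and *Rxra*), against 12.3% of all such genes, and 9 had probes more than 1 apart on the log2 scale. To ask whether the position of a probe along its transcript went with its change, the outermost probes on 1 transcript were compared, as a difference within each array that no scaling by a constant can move. This comparison was chosen after the data had been seen. In 9 of 15 member pairs the upstream probe changed more in the direction of an increase than the downstream one, against 38.9% of all 3898 pairs. In none was it the reverse in limma, against 4.75% of all pairs, and the count was also 0 at an unadjusted p and with the methods' t-test, but 1 without the first OGD array or with normexp correction (*Thrb*). The median difference was 0.58 for the members and 0.33 for all pairs.

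The largest differences were in *Rorb* (2.23 ± 0.10 SE on the log2 scale, probes 5266 bases apart), *Thra* (2.19 ± 0.13, 1640 bases), *Rara* (2.10 ± 0.20, 847 bases), *Nr3c1* (2.04 ± 0.12, 2542 bases) and *Rxra* (1.98 ± 0.14, 3465 bases). With normexp correction the first 4 were between 1.88 and 2.21, and *Rxra* was at 0.72, *Rxrg* at 0.57, *Rarb* at 1.17 and *Ppara* at −0.13. For *Rorb*, the upstream probe went from 1290 and 1343 to 2224 and 2060, while the downstream probe went from 1086 and 1175 to 409 and 378. For *Thra*, the upstream probe shown above had 396 and 480 against 227 and 215 (log2 0.39, adjusted p = 0.0563), so that the decrease of *Thra* was called at its downstream probe and not at this one. For *Rxra*, the upstream probe carried the rise, while the downstream probe fell from 66.4 and 64.0 to 14.9 and 16.8 (log2 −0.67, adjusted p = 0.0229). *Nr4a2* was among those whose pair did not pass (0.30 ± 0.10, 1062 bases; adjusted p = 0.0800).

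Pairs farther apart were read separately. Among pairs more than 1500 bases apart, 6 of 6 members had the higher upstream change, against 64.4% of all such pairs, and among closer pairs 3 of 9, against 24.6%. The calls for *Ppara*, *Rarb* and *Nr2c1* were lost with either untreated array left out (adjusted p from 0.106 to 0.177), which left 6 pairs. Members with a single probe, such as *Nr4a1*, *Pparg* and *Rarg*, could not be compared in this way.

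**Figure D3:**
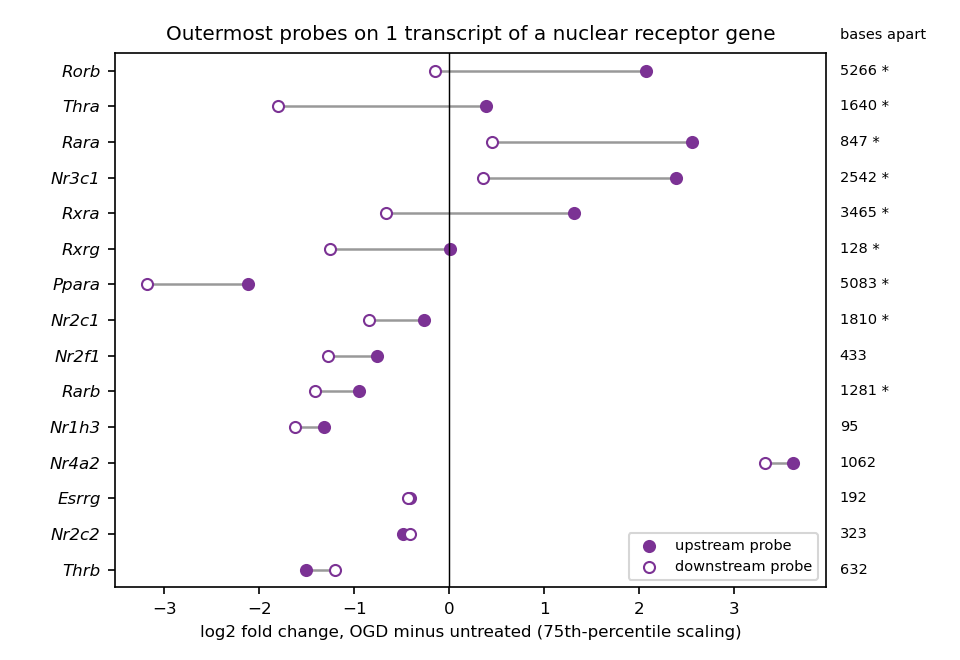
Log2 fold change (x axis, OGD minus untreated, 75th-percentile scaling) of the outermost upstream (filled) and downstream (open) probe on 1 transcript for the 15 nuclear receptor genes with such a pair, ordered by the difference, with the distance in bases at the right and an asterisk where the difference was called. The upstream probe lay to the right in 13 genes, by about 2 in the first 5, and the order was turned in *Nr2c2* and *Thrb*.

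Finally, the genes that work around the receptors were read from 9 lists, against 37.1% of all genes higher and 27.9% lower with 75th-percentile scaling, and 3.85% higher and 83.4% lower with spike-in scaling. Coactivators and corepressors split, with 8 of 26 higher and 10 lower (median log2 fold change −0.19), and 0 higher and 24 lower with spike-in scaling. *Ncoa4* and *Ncoa7* rose most among them (log2 1.03 and 1.04), but both were at or below 0 with spike-in scaling (−0.26 and −0.25). *Ncoa3* and *Nsd1*, a coactivator and a histone methyltransferase, fell most, from 3047 and 3263 to 182 and 214 (log2 −2.62) and from 8121 and 7582 to 690 and 441 (log2 −2.46). Upstream probes of the same genes gave 1.12 and 0.22. *Ppargc1a* (PGC-1α), the partner of PPARs and ERRs, fell 2.14-fold at its brighter probe and 1.51-fold at the other. Without the first untreated array 5 coregulators were higher and 6 lower, and without the second 5 and 7.

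Of the chaperones that hold steroid receptors, 10 of 14 were higher and 0 lower in limma (also 0 at an unadjusted p and with the methods' t-test; median 0.84). *St13* (log2 1.58) and *Dnajb1* (1.18) rose most and were at 0.29 and −0.10 with spike-in scaling, under which 11 of the 14 chaperones were lower, against 83.4% of all genes. Of 14 glucocorticoid receptor target genes, 12 rose and 1 fell (median 0.86). *Errfi1* rose 11.2-fold, from 8027 and 8054 to 37954 and 31963, and *Dusp1* 6.53-fold, from 6917 and 6870 to 18443 and 16370, and both were still higher with spike-in scaling (log2 2.20 and 1.42), under which 3 of the targets were higher and 9 lower. The one that fell was *Tsc22d3* (log2 −0.26), chosen by name after its value was seen, and its adjusted p was 0.0498 here and 0.127 with median scaling, and its call was lost without any 1 of the 4 arrays. The number of targets that rose was 8 without the second untreated array.

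Ligand synthesis, breakdown and transport had 12 of 27 tested genes higher and 7 lower (median 0.26; 31 on the list), and 4 lower without the first untreated array. The retinoic acid binding protein *Crabp1* and the retinaldehyde dehydrogenase *Aldh1a3* rose 3.50-fold and 3.31-fold. With spike-in scaling *Crabp1* was 1.43-fold higher and *Aldh1a3* did not pass (log2 0.44, adjusted p = 0.0677), and of the whole list 2 were higher and 19 lower. *Cyp24a1*, which breaks down vitamin D and is a target of *Vdr*, went from 177 and 185 to 2.30 and 1.54, not well above background after OGD, and so was at least 10.5-fold lower after scaling (adjusted p = 0.000719), whereas normexp correction gave a log2 fold change of −0.84. *Cyp26a1*, which breaks down retinoic acid, was faint (20.8 and 37.5 against 4.79 and 1.87), at least 1.62-fold lower on the same scale (adjusted p = 0.0405), a call that normexp correction turned (log2 0.83) and that was lost with either untreated array or the second OGD array left out (adjusted p from 0.0664 to 0.152). It was also lost with the methods' t-test (adjusted p = 0.173), the replicate block (0.0797), quantile normalization (0.0586) and no filter on dim probes (0.0581), so that no firm change can be read for *Cyp26a1*. Both genes entered the test through the untreated arrays alone.

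Among LXR targets, 8 of 12 rose and 3 fell (median 0.68; 2 without the first untreated array), *Nr1h3* itself being on the list. With spike-in scaling 0 LXR targets were higher and 8 lower. *Pltp* and *Lpl* rose 2.66-fold and 2.27-fold, with 0.12 and −0.10 on the log2 scale under spike-in scaling, and *Lpcat3* fell 2.75-fold. PPAR targets had 7 of 16 higher and 4 lower (median 0.22), but 1 higher without the first untreated array and 0 without the second. With spike-in scaling 0 were higher and 15 lower. *Ehhadh*, an enzyme of peroxisomal fatty acid oxidation, went from 380 and 419 to 7.67 and 5.49 (log2 −4.57; adjusted p = 0.000719), well above background on 1 of the 2 OGD arrays, and normexp correction gave −1.69. *Angptl4*, an inhibitor of lipoprotein lipase, fell 3.85-fold, from 1783 and 1738 to 225 and 139.

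Retinoic acid and thyroid hormone targets had 4 of 14 tested genes higher and 7 lower (median −0.20). The 7 include the member *Rarb* itself and *Cyp26a1*, for which no firm change can be read. *Thrsp*, a thyroid hormone target of lipid synthesis, fell 10.2-fold, from 4231 and 4390 to 196 and 136, while *Crabp2* rose by 1.58 on the log2 scale. With either untreated array left out the number lower was 4, and with spike-in scaling 1 was higher and 12 lower. Of 8 REV-ERB and ROR targets, 4 rose and 0 fell in limma (also 0 at an unadjusted p and with the methods' t-test; median 0.82), *Nr1d1* being on the list too. With spike-in scaling 3 of these targets were higher and 3 lower. *Nfil3* rose 13.4-fold, from 3165 and 3179 to 17469 and 15412, and *Arntl* (BMAL1), the core clock activator, 6.47-fold, from 2630 and 2563 to 7389 and 5686, and both were still higher with spike-in scaling (log2 2.46 and 1.40). ERR targets, mostly mitochondrial enzymes, had 8 of 12 higher and 3 lower (median 0.52), the last being *Esrra*, *Ppargc1a* and *Pdk4* (log2 −1.88), and all 12 were lower with spike-in scaling, against 83.4% of all genes. With either untreated array left out 5 ERR targets were higher.

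**Figure D4:**
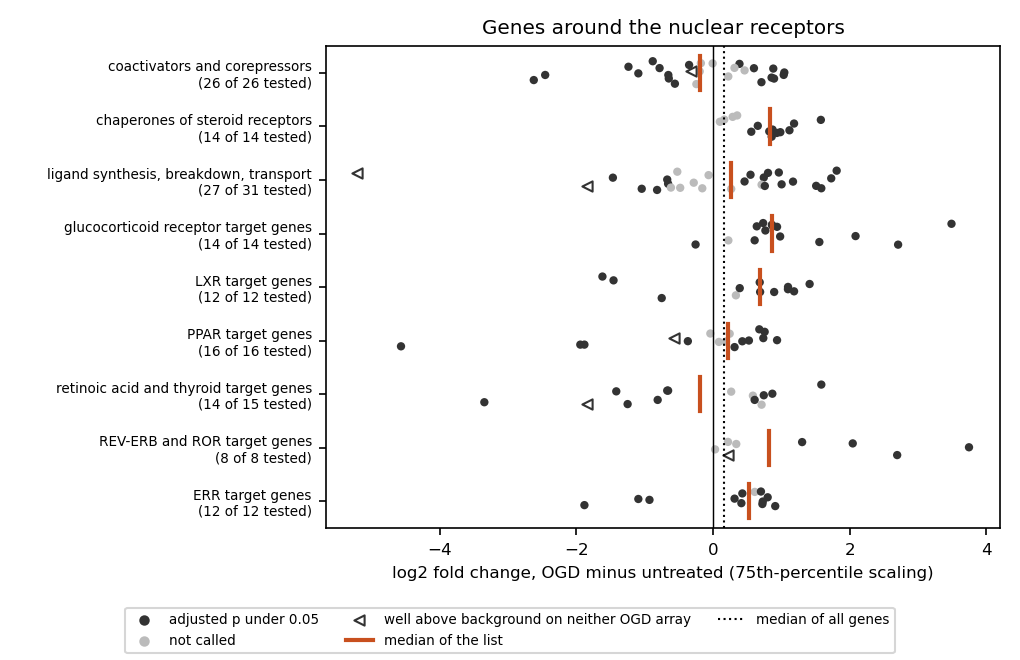
Log2 fold change (x axis, OGD minus untreated, 75th-percentile scaling) of each tested gene of the 9 lists around the nuclear receptors, with called genes dark, the list median as a bar and the median of all genes dotted. Chaperones and glucocorticoid receptor targets lay mostly to the right of the median of all genes, and triangles, *Cyp24a1* and *Cyp26a1* among them, mark genes well above background on neither OGD array.

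Markers of the cell types that the cultures could hold moved beside these results, against 37.1% of all genes higher and 27.9% lower, or 3.85% and 83.4% with spike-in scaling. The 10 markers of astrocytes were each well above background on all 4 arrays, 5 rose and 2 fell, and their summed processed signal was 355318 and 314694 in untreated AECs and 192820 and 171675 after OGD. Of the astrocyte markers, 0 were higher and 8 lower with spike-in scaling. Of 8 microglial markers, 7 were tested, 3 rose (*Cd68* at log2 3.14, *Csf1r* at 1.14 and *Aif1* at 1.03) and 1 fell (*Tmem119* at −0.88, but 0.18 with normexp correction). With spike-in scaling *Cd68* was at 1.85, *Csf1r* at −0.15 and *Aif1* at −0.26, with 1 of the 7 higher and 4 lower. The microglial markers had a summed signal of 4968 and 4415 against 5982 and 5064. Among 8 oligodendrocyte markers 3 rose and 3 fell (*Mbp* at 1.19, *Olig2* at −2.50), with sums of 62163 and 63420 against 23260 and 19734, and with spike-in scaling 0 were higher and 7 lower. NG2 glia had 1 of 3 markers higher and 1 lower (sums 564 and 625 against 312 and 241), neurons 3 of 6 higher and 2 lower (17834 and 17168 against 7675 and 6504), meningeal fibroblasts 2 of 5 lower (27732 and 23950 against 9638 and 6493) and endothelial cells 1 of 3 lower (3563 and 3780 against 1251 and 1001). With spike-in scaling 1 neuronal marker was higher and 5 lower, and all 3 NG2, all 5 fibroblast and all 3 endothelial markers tested were lower. Each cell type had markers well above background on every array, with 5 of 6 for meningeal fibroblasts and 3 of 4 for endothelial cells. The part of a changed cell mixture in the changes of the receptors was not tested.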

How the data were processed

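RNA of AECs (untreated, n = 2; OGD for 15 h, n = 2) was labeled with Cy3 and hybridized to 1-color Agilent mouse arrays. The deposited values are processed intensity signals per spot, which the authors obtained with Agilent Feature Extraction (version 11.5.1.1 per the labels), background-subtracted and not scaled between arrays. The deposited series table was used as an alternative source.

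Outlier spots and control probes were left out, repeated spots of each probe were averaged as log2 values, and the 75th percentile of each array was subtracted, as in the methods. A probe was tested if well above background on both arrays of a group, in at least 0.5 of its spots. OGD was compared with untreated AECs using limma (version 3.58.1, R 4.3.3), with Benjamini-Hochberg adjustment over all 28163 probes, and called at an adjusted p under 0.05. Counts were also taken beyond 2-fold and 10-fold. A gene was represented by its brightest tested probe. A bound for a dim probe used the higher of the lowest signal well above background and the probe's own signal. With 2 samples against 2, an exact permutation test cannot go below p = 0.333, and the number of arrays limits the precision. The limma p-values rest on the spread between these samples, combined with a variance prior taken from all probes tested.

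Every member was described with its probes, and from each list the 2 genes with the highest and the 2 with the lowest change past the threshold and 2-fold were named. The members and lists were chosen with earlier results of these data known. The alternatives tried included the methods' t-test, a trended and robust limma prior, a block for replicate number, normexp (offset 50), other scalings (quantile, median, detected probes, spiked-in probes), filters, outlier spots kept, the series table, each array left out, and the mean over probes. The comparison of upstream with downstream probes was chosen after seeing the data. Probe coordinates are mm9, and promoters are from RefSeq (GRCm38.p6). Of 73 member probes, 70 matched a RefSeq accession with the same symbol. The fits were tested on simulated data.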

Additional observations from a re-analysis of the deposited data

How the results depend on the processing

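With 11 members higher and 17 lower as reported, normexp correction gave 18 higher, spike-in scaling 7 higher and 28 lower, and leaving out 1 array 9 to 12 higher and 11 to 18 lower (11 without untreated replicate 1). Beyond 10-fold, spike-in scaling gave 2 lower (*Ppara*, and *Nr1h4*, which was at background after OGD and whose fold is not measurable). With the scaling as reported, a 2-fold limit gave 9 higher and 10 called lower. These 10 include *Pgr* and *Nr1h4*, for which no fold can be read. The median of the members was 0.28 with normexp, −0.36 with quantile normalization, −0.34 with the percentile of detected probes, −1.48 with spike-in scaling, 0.013 with no filter, −0.34 with the mean over probes and −0.24 to −0.13 with 1 array left out. List genes higher were 40 with quantile normalization, 8 with spike-in scaling and 45 to 71 with 1 array left out, and lower 99 with spike-in scaling and 17 to 26 with 1 array left out. Member pairs with the higher upstream change were 5 with the methods' t-test and 6 to 10 with 1 array left out, and with the lower 1 with normexp and 0 to 1 (1 without OGD replicate 1).

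Where a value passed the test on either side, the sign turned with normexp for *Nr3c2* (0.84), *Pgr* (0.96), *Esrrb* (0.85), *Esrrg* (0.57), *Nr1h4* (0.89), *Cyp26a1* (0.83) and the *Ppara* pair (−0.13), and with quantile normalization for *Nr3c1* (−0.21). With spike-in scaling it turned for *Nr3c1* (−0.94), *Esr1* (−1.27), *Rara* (−0.83), *Rxrg* (−1.28), *Ppard* (−1.06), *Nr1d2* (−1.26), *Nr5a1* (−0.93), *Dnajb1* (−0.10), *Lpl* (−0.10), *Ncoa4* (−0.26) and *Ncoa7* (−0.25), and with the mean over probes for *Rxrg* (−0.62). Values that passed on neither side also changed sign, such as *Esr2* with spike-in scaling (−0.68) and *Esr1* with quantile normalization (−0.059). The cause was not tested. With the mean over probes, *Rxra* (0.32) and *Rora* (0.33) lost the call. Samples of the same replicate number did not deviate together (correlation −0.057), and the replicate block gave 9 members higher, 17 lower and 10 pairs, with *Nr3c1* (adjusted p = 0.0614) and *Rara* (0.0548) losing the call in limma, as did *Cyp26a1* (0.0797).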
